A study of Homo sapiens with 10 samples.

Results

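HSF1 binding was examined at 6 genes that encode co-chaperones of HSP90: STIP1, FKBP4, PTGES3, CACYBP, AHSA1 and CHORDC1. A gene was counted as called in a list when any peak overlapped the 5 kb on either side of its start. The starts were given in hg19 to the nearest 100 bp. The 6 windows held 29 of the 8124 peaks listed in the series. Overlapping peaks of all lists joined into 6597 regions, of which 6 lay in these windows, 1 per gene. The series is chromatin immunoprecipitation and sequencing (ChIP-seq) of HSF1 in HCT116, an established human colon cancer line. Cells were unmodified (WT) or FBXW7 knockout (KO), and FBXW7 is the substrate-binding subunit of a ubiquitin ligase. Each line was either left untreated, with 1 HSF1 library, or heat shocked at 42 °C for 1 h, with 2. The labels do not say whether the KO line is 1 clone or whether replicates came from separate cultures, and peak lists hold no measure by which the loss of FBXW7 could be checked.

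HSP90 is an ATP-driven chaperone that folds and activates client proteins such as kinases and steroid receptors. Co-chaperones bind it at successive steps of its cycle: they deliver clients, time the hydrolysis of ATP, or hold the closed form. HSF1 is the transcription factor of the heat shock response, and it binds as a trimer to heat shock elements, which are arrays of the unit GAA in alternating orientation. Chaperone genes are among its best known targets.

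The promoters of 5 of the 6 genes were in the RefSeq promoter table (GRCh38.p14), with 8 promoters in all. Each spans 250 bases before to 50 bases after a start. FKBP4 was not in the table. The search was for 3 units in a row, GAANNTTC followed by NNGAA or TTCNNGAA followed by NNTTC, which are reverse complements of each other and so cover both strands. CHORDC1 was the only one of the 5 genes with a match in full, and 0.49% of the 35116 promoters of the table hold such a match. Its 3 matches overlap and join into 5 alternating units in a row, from 60 to 38 bases before the start. With 1 of the 9 fixed letters allowed to differ, a setting chosen after the promoters were seen, 6.24% of all promoters hold a match. STIP1 and AHSA1 then matched as well, each at 1 of its 2 promoters, and PTGES3 did at its 1 promoter. The shares are per promoter, so a gene with 2 promoters has 2 chances to match. The stretches are shown because they hold these matches, which are in capitals. Positions are GRCh38.p14, the sequences are RefSeq's and each runs 5′ to 3′ along its gene.
CHORDC1 (chr11:90223050-90223199, minus strand): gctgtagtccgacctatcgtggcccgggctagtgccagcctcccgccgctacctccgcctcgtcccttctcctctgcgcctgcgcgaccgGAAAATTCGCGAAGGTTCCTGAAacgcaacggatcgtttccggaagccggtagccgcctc
STIP1, the later of its 2 starts (chr11:64186044-64186193, plus strand): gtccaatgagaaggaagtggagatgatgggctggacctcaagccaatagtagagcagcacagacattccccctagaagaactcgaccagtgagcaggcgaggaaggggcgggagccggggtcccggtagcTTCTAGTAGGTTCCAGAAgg
AHSA1, the later of its 2 starts (chr14:77457963-77458112, plus strand): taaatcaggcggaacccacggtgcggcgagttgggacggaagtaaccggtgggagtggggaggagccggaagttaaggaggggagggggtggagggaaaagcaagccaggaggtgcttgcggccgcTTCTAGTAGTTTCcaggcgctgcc
PTGES3 (chr12:56688355-56688504, minus strand): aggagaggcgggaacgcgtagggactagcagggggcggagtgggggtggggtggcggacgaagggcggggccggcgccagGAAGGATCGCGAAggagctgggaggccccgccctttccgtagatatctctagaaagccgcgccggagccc

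STIP1 and AHSA1 carried matches that differ from the second of these forms by the same substitution, A7T, counted from the first base of the motif. In STIP1 the match began 3 bases after the later start, and a second match, to the first form with A2T, overlaps it. In AHSA1 the match began 4 bases before the later start. The PTGES3 match, GAAGGATCGCGAA, has T6A against the first form and lies 140 to 128 bases before the start. Neither CACYBP promoter held these letters. A shorter search for 2 units, GAANNTTC or TTCNNGAA, is contained in the longer one. It found CHORDC1 and 1 of the 2 promoters of STIP1, beside 13.5% of all promoters. A match is a description of the letters in these windows and not a measured site. Peaks are in hg19 and promoters in GRCh38, so no match was placed inside or outside a peak.

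All 6 co-chaperone genes had an HSF1 peak in each of the 3 KO lists, heat shocked or not. In WT cells the calls were fewer and differed by library: 1 gene (PTGES3) untreated, 4 genes (STIP1, FKBP4, AHSA1 and CHORDC1) in heat shock replicate 1, and 2 genes (STIP1 and FKBP4) in replicate 2. Of windows of the same length laid end to end along the chromosomes, 0.906% held a peak in untreated KO, 0.5% and 1.05% in the KO heat shock libraries. In WT the shares were 0.0315% untreated, 0.086% in heat shock replicate 1 and 0.0515% in replicate 2. Windows laid end to end are not limited to gene starts, and the genes were chosen with earlier results of these data known. The shares are thus a description and not a test. Peaks beyond the 6 gene windows were far away, the nearest 27.5 kb from the STIP1 start. Each listed peak has a score, the authors' own value, whose lowest lay between 50 and 50.44 in each list. Scores order the peaks of a list, and whether they share a scale between libraries is not given.

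**Figure D1:**
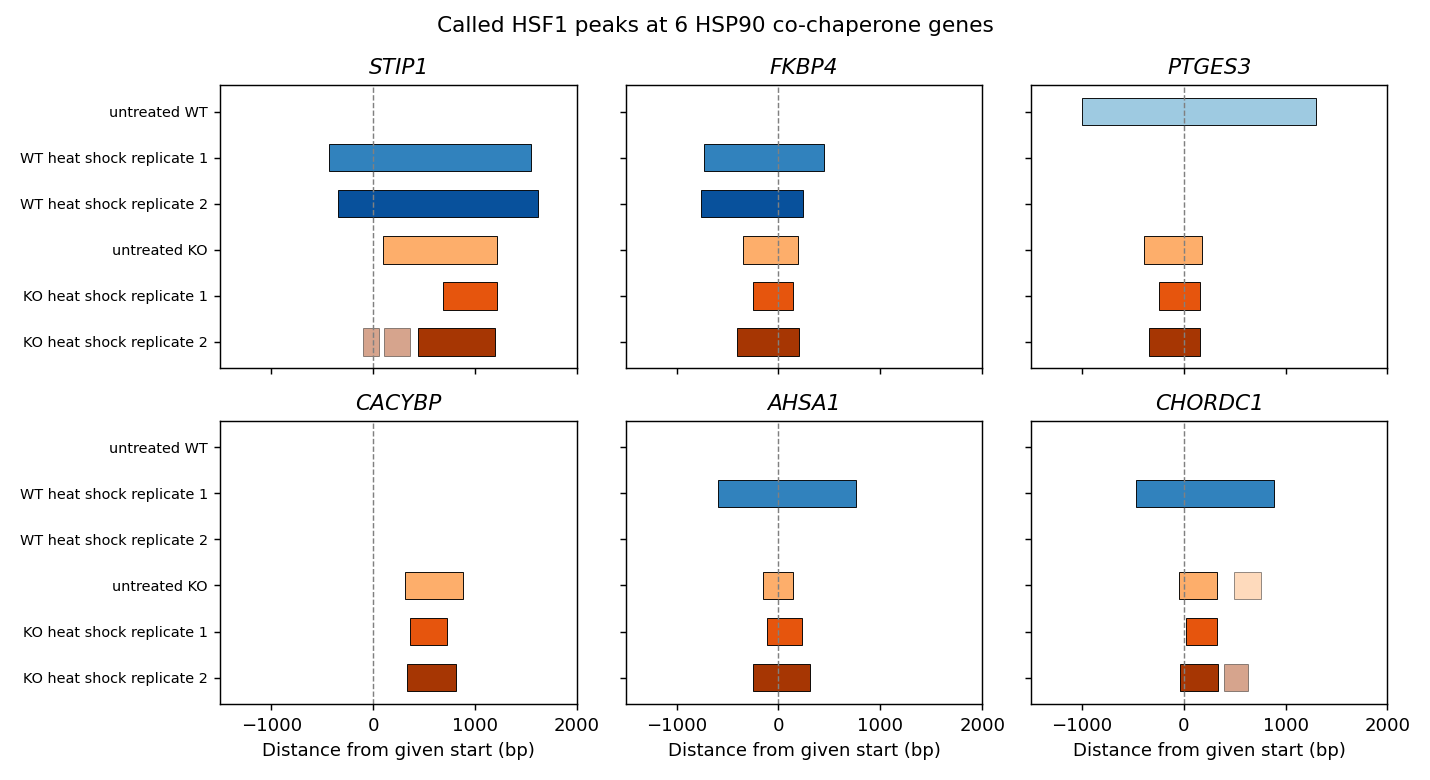
Extent of every called HSF1 peak in the windows of the 6 genes (1 panel each), as distance from the given start in bp along the gene (FKBP4 along the genome), 1 row per library; solid bars are the strongest peak of a gene in a list and pale bars its other peaks. The KO rows are filled in all 6 panels, while the WT rows are filled 7 times in 18 and carry wider bars.

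STIP1 encodes HOP, the adaptor that holds HSP70 and HSP90 together while a client is passed on. It had no peak in untreated WT, and its peaks in WT heat shock replicates 1 and 2 scored 91.5 (rank 57 of 225) and 98.4 (rank 29 of 131). In untreated KO its score was 1358 (rank 13 of 2866), and in KO heat shock replicates 1 and 2 it was 830 (rank 9 of 1566) and 1721 (rank 10 of 3257). STIP1 thus led the 6 genes in all 3 KO lists, and its untreated KO score lay between those of the heat shock replicates. The KO peaks were centred 658 to 947.5 bp after the given start, and all 3 covered chr11:63953382-63953895 (hg19). RefSeq lists a later STIP1 start, 899 bases after the earlier one in GRCh38. KO heat shock replicate 2 had further peaks of scores 168 and 97.7 nearer the given start, within the span that the WT peaks of 1991 and 1956 bp covered whole.

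FKBP4 encodes FKBP52, an immunophilin that joins HSP90 in steroid receptor complexes. Like STIP1 it was not called in WT at rest and was called in each WT heat shock list, with scores of 111 (rank 41 of 225) and 87.7 (rank 37 of 131) in replicates 1 and 2. Its scores were 709 (rank 51) in untreated KO and 265 (rank 79) and 867 (rank 40) in KO heat shock replicates 1 and 2. As at STIP1, the untreated KO value lay between the heat shock replicates. The KO peaks were centred at −100 to −57 bp from the given start along the genome and shared chr12:2903845-2904241.

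PTGES3 encodes p23, which binds the closed, ATP-bound form of HSP90. It was the one gene of the 6 with a peak in untreated WT, with a score of 71.1 at rank 40 of 79, and neither WT heat shock library called it. Of the 79 regions called in untreated WT, 25 (31.6%) likewise had no peak in the heat shock lists. In untreated KO it scored 1048 (rank 25), and in KO heat shock replicates 1 and 2 355 (rank 46) and 799 (rank 49). Its KO peaks were 402 to 571 bp wide, centred 43.5 to 104.0 bp before the start, and shared chr12:57081943-57082344. The untreated WT peak was 2307 bp wide and covered all of them. A missing call means that the caller's limit was not reached in that library. The WT order, a call at rest and none after heat shock, thus rests on 1 peak and on missing calls. That peak scored close to the median of its list, 71.1.

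AHSA1 encodes AHA1, which stimulates the ATPase of HSP90. Its 1 WT peak, in heat shock replicate 1, scored 58.2 at rank 151 of 225. In untreated KO it scored 268 (rank 160), and in KO heat shock replicates 1 and 2 213 (rank 98) and 480 (rank 86). AHSA1 had the lowest score of the 6 genes in each KO list. The KO peaks lay across the given start, centred 5.5 bp before it to 60.5 bp after it, and shared chr14:77924288-77924541.

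CHORDC1 encodes CHP-1 (morgana), an HSP90-binding protein with CHORD and CS domains. Its 1 WT peak, again in heat shock replicate 1, scored 52.2 at rank 202 of 225, the weakest call of any of the 6 genes. In untreated KO it scored 515 (rank 75), and in KO heat shock replicates 1 and 2 245 (rank 86) and 688 (rank 54). CHORDC1 ranked behind STIP1, PTGES3 and FKBP4 in each KO list. The KO peaks shared chr11:89956173-89956479. A second, weaker peak followed in untreated KO (score 93.1) and in KO heat shock replicate 2 (83.2), centred 624.5 and 515.5 bp after the given start.

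CACYBP encodes the calcyclin-binding protein, related by its CS domain to SGT1 and p23. It was the one gene called in KO lists only. It scored 513 (rank 76) in untreated KO and 342 (rank 50) and 592 (rank 63) in KO heat shock replicates 1 and 2. These ranks were above those of AHSA1 in every KO list, yet AHSA1 had a WT peak and CACYBP had none. The peaks shared chr1:174968964-174969321 and were centred 542.5 to 595.5 bp after the given start. RefSeq lists a later CACYBP start, 512 bases after the earlier one in GRCh38. Which RefSeq start each given hg19 start stands for was not established here.

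**Figure D2:**
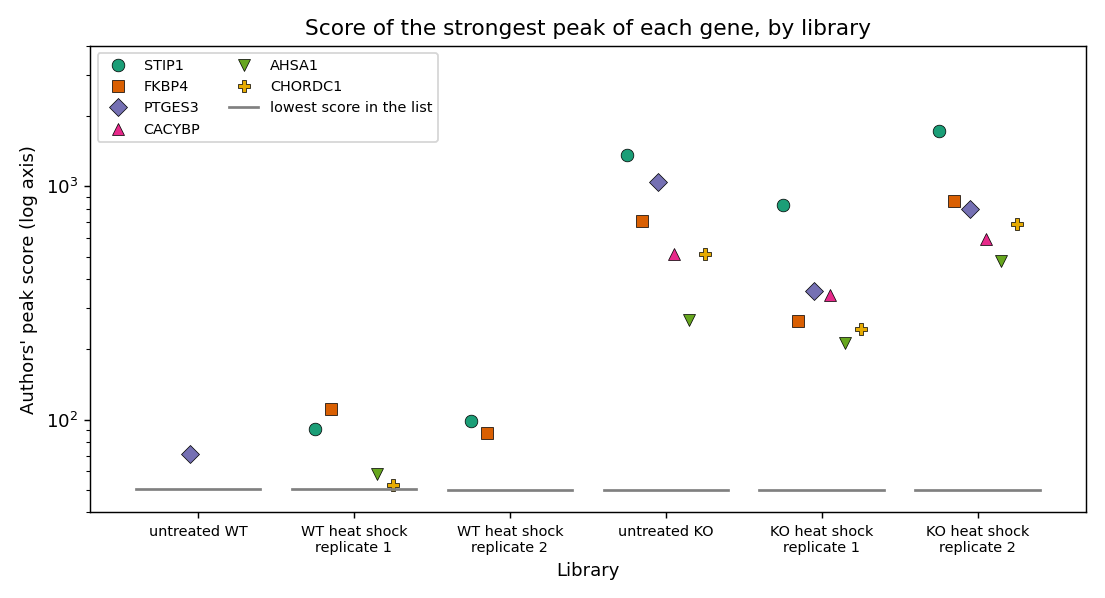
Score of the strongest peak of each gene (symbols, logarithmic axis) in each of the 6 libraries, with a grey line at the lowest score of the list; a gene without a symbol was not called. WT scores run from 52.2 to 111 and KO scores from 213 to 1721, and within the KO lists STIP1 is highest and AHSA1 lowest.

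At rest, 6 genes were called in KO and 1 in WT, so 5 were called in untreated KO and not in untreated WT, against 41.4% of the 6597 regions. That background includes regions called in a single list. Regions with a peak in all 3 KO lists, as all 6 genes had, numbered 355 (5.38% of regions), and 16.9% of them were called in untreated WT. Of these 355 regions, 80 had a median KO rank between 10 and 98, the range of the 6 genes, which are counted among them. In this range 35 (43.8%) were called in untreated WT, and of the 6 genes 1 was. With 1 library per line at rest there is no replicate check.

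In WT cells, 4 genes without a call at rest were called after heat shock (STIP1, FKBP4, AHSA1 and CHORDC1), against 3.61% of all regions and 28.8% of the 80 regions of similar KO rank. Only STIP1 and FKBP4 were called in both replicates. The calls of AHSA1 and CHORDC1 rest on replicate 1, and without it the count was 2. PTGES3 was called at rest alone. In the range of similar KO rank, 55% of regions were called in WT heat shock replicate 1 and 47.5% in replicate 2, beside 4 and 2 of the 6 genes, so the genes' counts lay on either side of the shares of regions as highly ranked in KO.

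In KO cells the calls at rest and after heat shock were the same: 6 of 6 genes had a peak before and 6 of 6 in each replicate after, and 0 were called after heat shock alone, against 55.2% of all regions and 0% of the 80 regions, whose choice fixes that value. For STIP1, FKBP4, CACYBP, AHSA1 and CHORDC1 the untreated score lay between those of the replicates, and for PTGES3 it (1048) lay above both (355 and 799). These scores are set side by side only, since a shared scale between the lists is not given. Replicate 1 had the shortest of the 3 KO lists, 1566 peaks against 2866 untreated and 3257 in replicate 2, and the part of this in the scores was not tested. By rank within a list, 3 genes stood nearer the top in both heat shock replicates than untreated: STIP1 (9 and 10, untreated 13), CACYBP (50 and 63, untreated 76) and AHSA1 (98 and 86, untreated 160). PTGES3 stood further down in both (46 and 49, untreated 25), and the untreated ranks of FKBP4 and CHORDC1 lay between those of the replicates. As a percentage of list length, STIP1, CACYBP and AHSA1 stood further down in replicate 1 (0.575%, 3.19% and 6.26%) than untreated (0.454%, 2.65% and 5.58%). In replicate 2 these 3 genes stood nearer the top (0.307%, 1.93% and 2.64%). Neither ranks nor percentages from lists of different lengths show a change in binding.

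**Figure D3:**
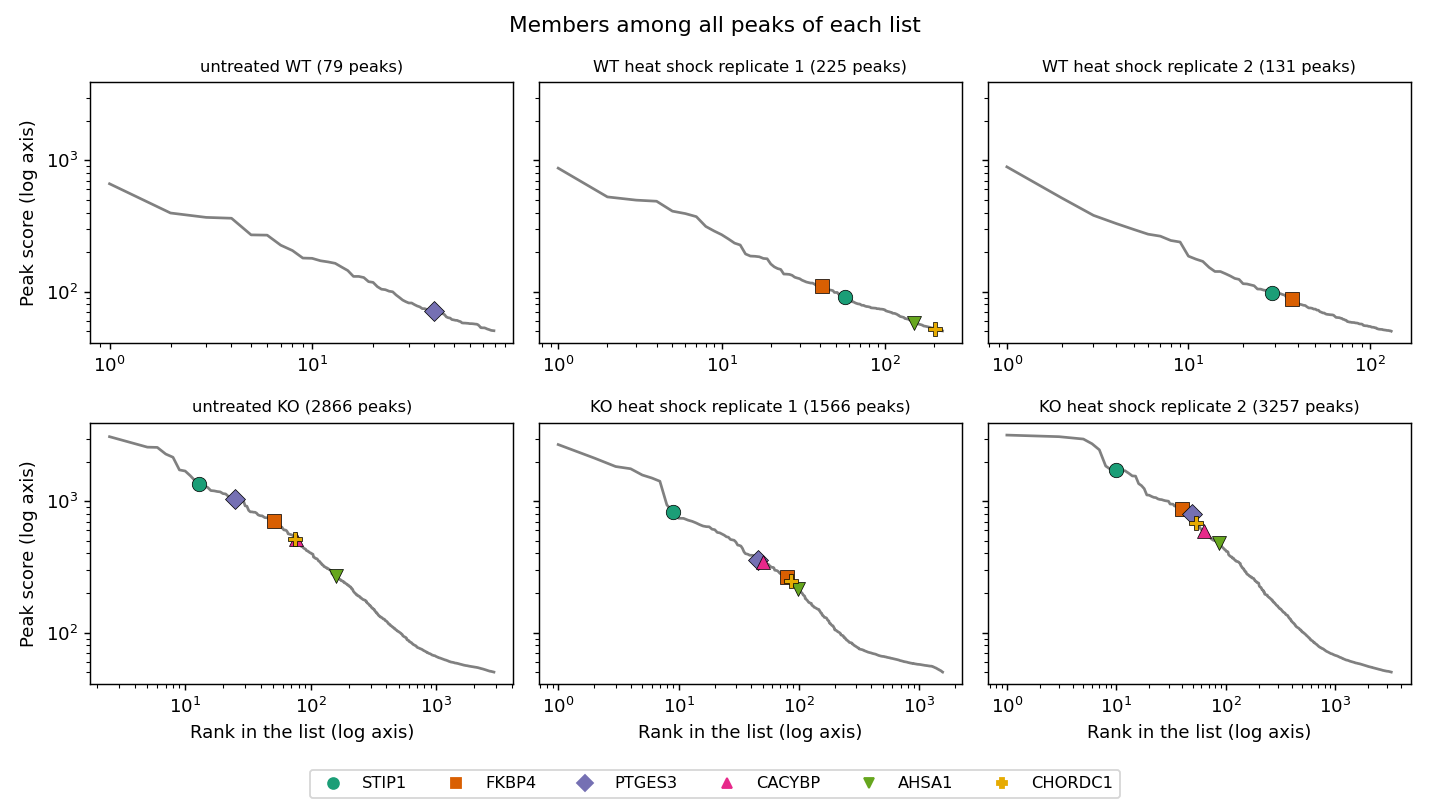
Peak score against rank for all peaks of each list (grey line, both axes logarithmic), with the strongest peak of each called gene marked. In the KO lists the 6 genes sit among the top 0.307 to 6.26% of peaks, and in the WT lists the called genes sit from the top 18.2% down to 89.8%. These percentages are rank over list length, and the lists hold 79 to 225 peaks in WT and 1566 to 3257 in KO. The same rank is thus a larger percentage in WT.

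After heat shock, KO was called at 6 genes in each replicate and WT at 4 and 2. The genes called in KO heat shock and in neither WT heat shock list were PTGES3 and CACYBP, 2 of 6, against 62.8% of all regions and 37.5% of the 80 regions of similar KO rank. Taking rest and heat shock together, CACYBP alone was called in KO and in no WT list (1 of 6, against 95.2% of all regions and 27.5% of the 80). Of the 80 regions, 58 (72.5%) had a peak in some WT list, beside 5 of the 6 genes. Without WT heat shock replicate 1 these counts became 4 and 3, as AHSA1 and CHORDC1 then had no WT call. At a score of at least 100 in every list both became 5, and FKBP4 alone kept a WT call. That limit left 24 peaks in untreated WT and 48 and 28 in WT heat shock replicates 1 and 2. It left 512 peaks in untreated KO and 216 and 511 in KO heat shock replicates 1 and 2. No share of all regions is given at these altered settings. No test was made over the genes, and 2 libraries against 2 cannot give an exact permutation p (two-sided) below 0.333.

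The lists of the lines differ in length and in peak width. WT peaks at the 6 genes were 1001 to 2307 bp wide (median 1356, 7 peaks) and the strongest KO peaks 294 to 1123 bp (median 490.5, 18 peaks). Over whole lists the median width was 1656 bp in untreated WT and 1468 and 1443 bp in WT heat shock replicates 1 and 2. It was 173 bp in untreated KO and 155 and 181 bp in KO heat shock replicates 1 and 2. With every list held to its 79 highest-scoring peaks, the length of the untreated WT list, the genes called were 5 in untreated KO, 4 and 5 in KO heat shock replicates 1 and 2, 2 in each WT heat shock list and 1 (PTGES3) in WT at rest. STIP1, FKBP4, PTGES3 and CACYBP were called in all 3 KO lists under that limit, and AHSA1 in none. No share of all regions is given under that limit, so these counts are a description of the 6 genes alone. The part of depth and of width in the difference between the lists was not tested.

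Among regions called in all 3 KO lists, the share with a WT call was smaller where the KO peaks scored lower. It was 95.5% of 22 regions with a median KO rank of up to 25 (STIP1 among them), 95% of 20 regions at 26 to 50 (with PTGES3), 58.3% of 48 regions at 51 to 100 (with FKBP4, CACYBP, AHSA1 and CHORDC1) and 24.1% of 87 regions at 101 to 200. In the band of PTGES3, 85% were called in a WT heat shock list, which PTGES3 was not. In the band of STIP1, 81.8% were called in untreated WT, which STIP1 was not.

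**Figure D4:**
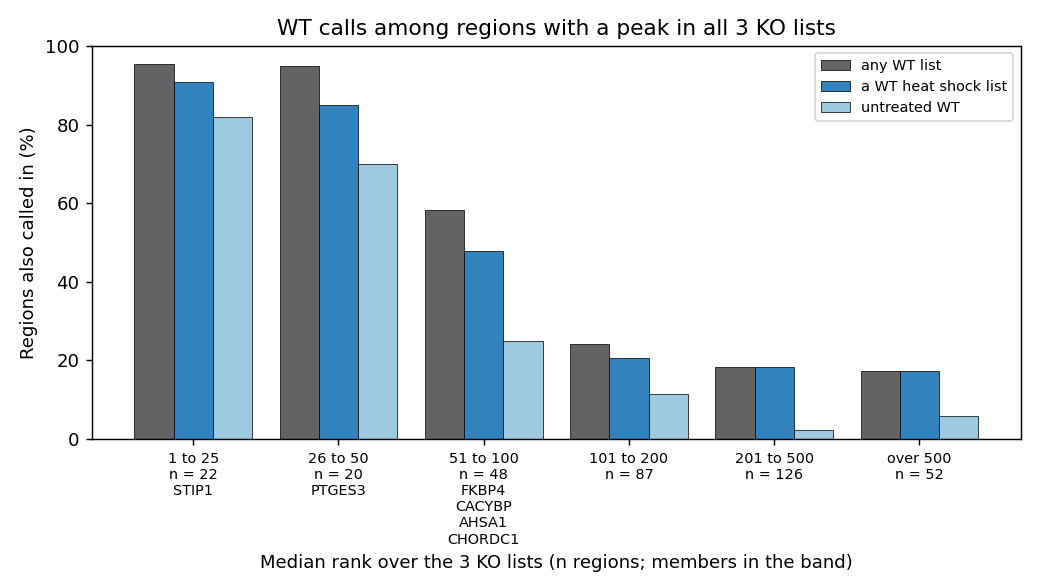
Percentage of regions, among the 355 with a peak in all 3 KO lists, that also had a peak in any WT list, in a WT heat shock list or in untreated WT, by median rank over the KO lists (number of regions and the genes in each band under the axis). The bars for any WT list go from 95.5% in the first band to 17.3% beyond rank 500.

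Of the 6597 regions, 0.273% had the calls of STIP1 and FKBP4, 0.167% those of PTGES3, 0.485% those of AHSA1 and CHORDC1, and 3.55% those of CACYBP. Since 95.2% of regions were called in KO lists only, any pattern with a WT call is uncommon among them. STIP1 and FKBP4 shared their pattern (all lists but untreated WT) with 16 regions outside the windows, and PTGES3 with 10. AHSA1 and CHORDC1 (WT heat shock replicate 1 and the KO lists) shared theirs with 30, and CACYBP with 233. The region most like each gene was taken as the one with the same calls and the smallest mean difference of log2 rank over the called lists. For STIP1 this was chr19:50528618-50529869 (0.94 over 5 lists), and for FKBP4 chr17:8128884-8130621 (0.36 over 5 lists). The nearest to PTGES3 was chr19:18740107-18741446 (0.53 over 4 lists), which ranked 33 in untreated WT and 34, 39 and 22 in untreated KO and KO heat shock replicates 1 and 2. CACYBP was closest to chr7:73417522-73418291 (0.16 over 3 lists), AHSA1 to chr19:18438957-18439960 (0.2 over 4 lists) and CHORDC1 to chr7:75923454-75924616 (0.36 over 4 lists). STIP1 had the widest gap of the 6. Each gap is the smallest among 10 to 233 regions and over 3 to 5 lists, so the gaps are not compared like for like.

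Other genes of the HSP90 cycle could be described only by their promoters, since no hg19 annotation was used here to place their peaks. Of 18 such genes (HSP90 itself and other co-chaperones), 15 were in the RefSeq promoter table with 21 promoters. The 3-unit heat shock element was found in full at 2, HSP90AA1 and HSP90AB1, which encode the cytosolic HSP90 proteins. With 1 letter allowed to differ there were 4, the others being SUGT1 and NUDC, a CS-domain co-chaperone and a CS-domain dynein-associated protein. All the other genes in the table had no such match, CDC37, the kinase adaptor, and FKBP5, the paralogue of FKBP4, among them. Of all promoters, 0.49% hold a match in full and 6.24% hold 1 with a letter allowed to differ. These shares are per promoter, and HSP90AA1 matched at 1 of 2 promoters and HSP90AB1 at 1 of 3.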

How the data were processed

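HSF1 peak lists of 6 HCT116 libraries were used, each precipitated with 5 µg of antibody per the labels. The series names 4 input libraries, not used here. The submitters' processing notes give CASAVA, Bowtie 0.12.7, MACS 1.4.2 and hg19, with no role for any of them. Each list was called for 1 library against the input of its line and condition, per the file labels. The score in each list is the authors' deposited value, and its scale is not given in the sources used here. No read depth was at hand, so depth is unknown.

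A gene was called by an overlap of at least 1 bp with its window. Ranks are by score within a list. Backgrounds were the joined regions and 10 kb tiles between the first and last peak of each chromosome. Calls and joining were tested on 20 simulated sets of lists, with all planted calls recovered in 20. All 6 genes are named, with each gene's most like region by a fixed rule. Genes, gene lists and rules were chosen with earlier results of these data known. Alternatives were the window, the overlap rule, a score of at least 100, lists of 79 peaks, both replicates required, each heat shock library left out, and a replicate block. Python 3.11.15, numpy 2.4.6, pandas 2.3.3 and matplotlib 3.10.9 were used.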

Additional observations from a re-analysis of the deposited data

How the results depend on the processing

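Windows of 1000, 2000 and 10000 bp either side, and peak midpoints in place of overlap, changed no count and no gene called. At a score of at least 100 the genes called numbered 0 in untreated WT, 1 (FKBP4) in WT heat shock and likewise 1 in WT heat shock but not untreated WT, and 5 in KO heat shock but not WT heat shock and 5 in KO lists only. With the 79 highest-scoring peaks of each list, 2 genes were called in WT heat shock, 2 of them not in untreated WT, and 2 (CACYBP and CHORDC1) in KO lists only. With a peak required in both heat shock replicates, 2 were called in WT heat shock, 2 not in untreated WT, 4 in KO heat shock but not WT heat shock, and 3 in KO lists only. Leaving out 1 heat shock library at a time gave 2 to 4 genes in WT heat shock, 2 to 4 not in untreated WT, 2 to 4 in KO heat shock but not WT heat shock, and 1 to 3 in KO lists only. The far ends of these ranges come from leaving out WT replicate 1. The other counts stayed within 1.5 times those of the main setting. Shares of all regions are given for the main setting only, so none stands beside these counts. Higher score limits and fewer libraries can only remove calls. The WT scores of the genes ran from 52.2 (CHORDC1) to 111 (FKBP4). The lowest scores of the WT lists were 50.44 untreated and 50.26 and 50.02 in heat shock replicates 1 and 2.

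The replicate numbers are not known to pair libraries. With the replicate block, a peak in KO and none in WT within every same-numbered pair, 2 genes were called (PTGES3 and CACYBP). All 6 genes were called in both KO heat shock lists. For them the block thus asks the same as the main count and could not differ from it. Pair 2 alone, chosen after seeing the data, gave 4. Over the 56 regions of all 4 heat shock lists, same-numbered libraries did not deviate together (r = −0.03 across regions, which are not independent replicates). Depth is unknown, so a missing call is not an absence of HSF1.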
